A study of Mus musculus with 6 samples.

Results

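Imprinted genes of the postnatal growth programme were examined in the lungs of mice with an activated human SRY transgene. The genes were H19, Dlk1, Mest, Peg3, Grb10, Cdkn1c, Plagl1, Ndn, Sgce and Gnas, and every probe carrying one of these gene symbols was used. All 10 genes had a probe, which gave 18 of the 25697 probes of the array and 10 of its 18138 gene symbols. Total RNA from lungs of male mice of strain FVB at postnatal day 6 was hybridised to Illumina MouseRef-8 BeadChips, with 3 mice labelled hSRY-OFF and 3 labelled hSRY-ON and 1 array for each mouse. The study's methods describe a single transgene copy at the H11 locus, in which a ubiquitously active CAG promoter drives human SRY together with EGFP once a Cre recombinase has removed a red fluorescent protein gene that the promoter drives until then. In hSRY-ON mice the recombinase came from the egg of a mother carrying Ddx4-Cre, and the hSRY-ON mice chosen for the arrays had not inherited that Cre transgene. hSRY-OFF is the name for mice in which the transgene was not recombined. The study also speaks of its comparison mice as controls, so whether the hSRY-OFF mice of these arrays carried the silent transgene rests on their label. All mice derived from 1 responder line, and the human transgene itself was not examined here.

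Imprinted genes are expressed from the maternal or the paternal copy only, according to DNA methylation marks laid down in the germ line. Many of them set fetal and early postnatal growth, and as a rule paternally expressed members promote growth while maternally expressed members restrain it. A group of them that includes the genes described here is strongly expressed in fetal and newborn organs and is turned down together as juvenile growth slows. The array measures the total RNA of a gene and does not separate the parental copies, so no statement on imprinting itself follows from these values.

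The lung label was checked against its defining markers. All 10 probes for Sftpc, Sftpb, Sftpa1, Ager, Scgb1a1, Nkx2-1 and Foxf1 passed the detection filter. Between 13191 and 14134 probes were detected per array. Arrays correlated at 0.991 to 0.993 within hSRY-OFF, at 0.972 to 0.980 within hSRY-ON and at 0.935 to 0.959 between the groups. The median SD of a probe across the 3 mice was 0.13 log2 units in hSRY-OFF and 0.22 in hSRY-ON, so the hSRY-ON mice were the more variable group. With so few arrays, the precision of each value below is limited.

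Of these genes, H19 and Mest also hold microRNAs within their transcripts. The array did not measure them. Their mature sequences are shown because a change in the host transcript is the only value here that bears on them. They were taken from RefSeq (GRCm38.p6), with the seed, bases 2 to 8, in capitals. The miR-675 pair lies within H19 on the minus strand, at chr7:142577112-142577133 for the 5p arm and chr7:142577078-142577099 for the 3p arm. The miR-335 pair lies within Mest on the plus strand, at chr6:30741314-30741336 and chr6:30741354-30741375. The 4 arms have 4 different seeds.
mmu-miR-675-5p: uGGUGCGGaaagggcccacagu
mmu-miR-675-3p: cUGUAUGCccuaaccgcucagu
mmu-miR-335-5p: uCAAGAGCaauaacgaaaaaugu
mmu-miR-335-3p: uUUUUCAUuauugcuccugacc

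The RefSeq promoter table held 13 windows for 7 of the 10 genes. The 250 bases upstream of a start site are shown for Peg3, Mest and Grb10, the genes with a called change that had a window, at 1 start site each. The Peg3 window lies on the minus strand at chr7:6730420-6730669, that of Mest on the plus strand at chr6:30737803-30738052 and that of Grb10 on the minus strand at chr11:12037421-12037670 (GRCm38.p6). Capitals mark matches, on either strand, to the letters searched, and adjoining GC boxes can overlap.
Peg3: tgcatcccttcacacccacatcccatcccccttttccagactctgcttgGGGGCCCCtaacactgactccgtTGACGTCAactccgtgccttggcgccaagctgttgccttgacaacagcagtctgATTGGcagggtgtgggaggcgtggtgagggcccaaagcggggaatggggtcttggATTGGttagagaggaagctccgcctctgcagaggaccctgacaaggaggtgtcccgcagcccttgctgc
Mest: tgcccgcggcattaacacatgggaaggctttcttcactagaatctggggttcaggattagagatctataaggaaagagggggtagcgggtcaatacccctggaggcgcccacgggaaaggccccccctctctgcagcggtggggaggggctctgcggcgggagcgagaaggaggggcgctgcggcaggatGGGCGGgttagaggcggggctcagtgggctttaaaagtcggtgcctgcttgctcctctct
Grb10: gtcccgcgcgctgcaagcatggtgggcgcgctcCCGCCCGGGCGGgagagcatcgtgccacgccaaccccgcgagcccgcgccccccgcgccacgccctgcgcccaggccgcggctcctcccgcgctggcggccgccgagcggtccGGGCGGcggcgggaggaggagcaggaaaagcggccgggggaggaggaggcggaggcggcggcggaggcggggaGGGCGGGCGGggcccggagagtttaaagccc

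The Peg3 window held GGGGCCCC, the letters bound by the product of Plagl1, and the cAMP response element TGACGTCA, together with the CCAAT box. Over all 32851 windows of this length the shares with these letters were 0.889%, 1.55% and 33.8%. The GC box GGGCGG occurred in the windows shown for Mest and Grb10 and in 32.7% of all windows. The Grb10 window shown held 40 CpG dinucleotides, more than 98.7% of all windows, against a median of 6. The other Grb10 window, at chr11:12027972-12028221, held 8, more than 57.0% of all windows, and no GC box. Which start site is used in lung was not determined. The SRY motif AACAAT occurred in 2 windows, both of Gnas, and in 9.42% of all windows. These 2 windows, at chr2:174327499-174327748 and chr2:174327518-174327767, overlap and hold the same match. The related letters AACAAAG occurred in none of the 13 and in 5.03% of all windows. The TATA box TATAAA occurred in 3 windows, all of Gnas, and in 12.4% of all. Of these 3, 2 are the overlapping windows, which share the match. These matches describe letters only.

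Of these genes 8 could be tested, and 5 of the 8 had a probe that passed the test. Peg3, Cdkn1c and H19 were higher in hSRY-ON lungs, while Mest and Grb10 were lower. Dlk1, Ndn and Gnas did not pass the test, and Plagl1 and Sgce were not detected on any array. The 8 genes had 11 probes past the filter, each detected on all 6 arrays. Of these 11 probes 3 were called higher and 3 lower (limma, adjusted p under 0.05), or 54.5%. Leaving out any 1 of the hSRY-OFF mice left 2 calls, those of Peg3 and Cdkn1c. Over all 13841 tested probes 26.9% were called, 13.6% higher and 13.3% lower, and 26.7% among the probes detected on all 6 arrays. The groups did not overlap for 10 of the 11 probes, against 46.6% of all probes. The median change of the 11 probes was -0.53 on the log2 scale and that of all probes -0.03, and the medians of the absolute change were 0.67 and 0.32. In whole lung, fewer cells of a type and less RNA per cell cannot be told apart.

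**Figure D1:**
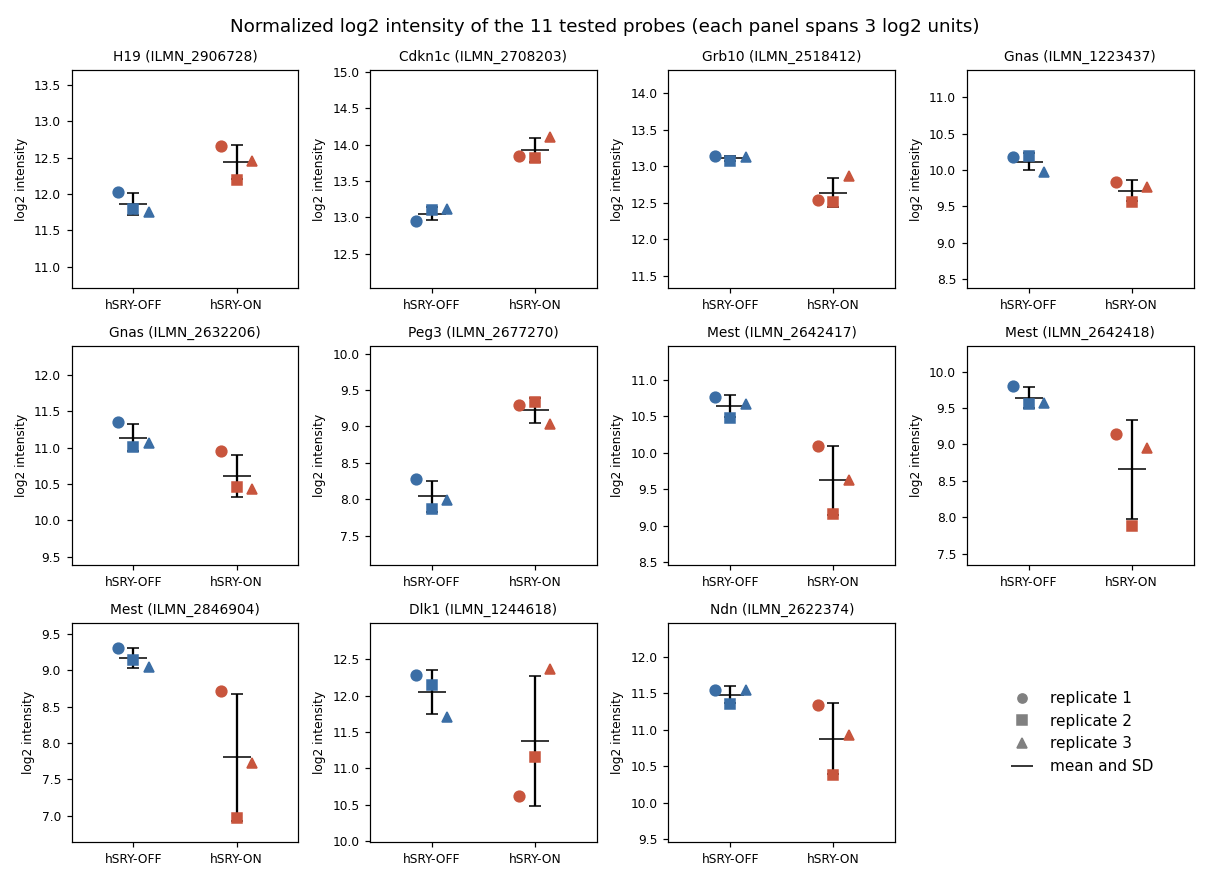
Normalized log2 intensity (vertical axis, each panel spanning the same range) of the 11 tested probes, with 1 point for each mouse, its shape giving the replicate, and the mean with its SD for each group of 3. The hSRY-ON points of Peg3, Cdkn1c and H19 lie above all hSRY-OFF points, those of Mest and Grb10 lie below, and those of Dlk1 span the hSRY-OFF points.

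Among the maternally expressed genes, Cdkn1c encodes p57, an inhibitor of cyclin-dependent kinases that stops the cell cycle. Its normalized log2 intensity was 12.95, 13.10 and 13.11 in the 3 hSRY-OFF mice and 13.85, 13.82 and 14.11 in the 3 hSRY-ON mice. All hSRY-ON values were above all hSRY-OFF values, with a gap of 0.71 between the groups. The mean rose from 13.05 ± 0.09 (SD, n = 3) to 13.93 ± 0.16 (SD, n = 3), a log2 change of 0.87 (SE 0.13, adjusted p 0.00500, limma) or 1.83-fold.

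H19 is a long noncoding RNA that is abundant in fetal organs and restrains growth. It measured 12.03, 11.79 and 11.76 in the hSRY-OFF mice and 12.66, 12.19 and 12.46 in the hSRY-ON mice on the log2 intensity scale. The lowest hSRY-ON mouse was 0.16 above the highest hSRY-OFF mouse. The means were 11.86 ± 0.15 and 12.44 ± 0.23 (SD, n = 3 each), with a log2 change of 0.57 (SE 0.16, adjusted p 0.0361, limma), or 1.49-fold. This call was lost on leaving out any 1 mouse other than hSRY-ON replicate 2, with a change of 0.46 to 0.69 over the 6 omissions. The adjusted p without hSRY-OFF replicate 1, 2 or 3 was 0.0661, 0.123 and 0.109, and without hSRY-ON replicate 1 or 3 it was 0.0606 and 0.0668.

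Grb10 encodes an adaptor that binds the insulin and IGF1 receptors and dampens their signal. Its log2 intensity was 13.14, 13.07 and 13.12 in hSRY-OFF mice and 12.53, 12.52 and 12.87 in hSRY-ON mice. The hSRY-OFF mice lay within a narrow band and all hSRY-ON mice lay below it, with replicate 3 nearest. The mean went from 13.11 ± 0.03 to 12.64 ± 0.20 (SD, n = 3 each), a log2 change of -0.47 (SE 0.13, adjusted p 0.0397, limma), to 0.720 times the hSRY-OFF level. With the arrays scaled to a common median the change was -0.33 (adjusted p 0.176, limma). Without hSRY-OFF replicate 1, 2 or 3 the adjusted p was 0.131, 0.110 and 0.107, and without hSRY-ON replicate 1 or 2 it was 0.0673 and 0.102, with changes of -0.58 to -0.41 over all 6 omissions.

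Among the paternally expressed genes, Peg3 encodes a zinc finger protein that takes part in maternal care, fat metabolism and p53-dependent cell death. Its log2 intensity was 8.27, 7.86 and 7.99 in hSRY-OFF mice and 9.29, 9.34 and 9.03 in hSRY-ON mice. The groups were 0.76 apart. The mean rose from 8.04 ± 0.21 to 9.22 ± 0.17 (SD, n = 3 each), a log2 change of 1.18 (SE 0.16, adjusted p 0.00338, limma) or 2.26-fold. Of the 11 probes, that of Peg3 alone had a smaller SD in hSRY-ON than in hSRY-OFF mice. Peg3 and Cdkn1c passed the test under all 17 alternative settings.

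Mest encodes an enzyme of the alpha/beta hydrolase family that is expressed in mesodermal tissue and promotes growth of adipose tissue and embryo. It had 3 probes. Probe ILMN_2642417 measured 10.77, 10.47 and 10.67 in hSRY-OFF mice and 10.10, 9.15 and 9.62 in hSRY-ON mice on the log2 intensity scale. Probe ILMN_2846904 measured 9.31, 9.14 and 9.05 in hSRY-OFF mice and 8.72, 6.98 and 7.72 in hSRY-ON mice. Probe ILMN_2642418 measured 9.81, 9.55 and 9.57 in hSRY-OFF mice and 9.15, 7.88 and 8.95 in hSRY-ON mice. On all 3 probes the hSRY-ON mice lay below the hSRY-OFF mice, with hSRY-ON replicate 2 lowest and replicate 1 highest of their group.

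The Mest change was -1.01 (SE 0.24, adjusted p 0.0215, limma) on the first of these probes, from a mean of 10.64 ± 0.15 to 9.62 ± 0.47 (SD, n = 3 each). It was -1.36 (SE 0.40, adjusted p 0.0426) on the second, from 9.16 ± 0.13 to 7.80 ± 0.87. The third probe went from 9.64 ± 0.14 to 8.66 ± 0.68, a change of -0.98 (SE 0.32, adjusted p 0.0580), and was not called. On the linear scale the probes stood at 0.495, 0.389 and 0.505 times their hSRY-OFF level. The SD of hSRY-ON mice was between 3.13 and 6.50 times that of hSRY-OFF mice. Without hSRY-ON replicate 2 the changes were -0.77, -0.93 and -0.59, with adjusted p of 0.0418, 0.0815 and 0.0412. Without hSRY-OFF replicate 1, 2 or 3 no Mest probe passed, with an adjusted p of at least 0.0552. Without hSRY-ON replicate 1 all 3 passed, and without hSRY-ON replicate 3 the first alone passed. The source used here does not give probe positions, so the probes were not assigned to transcript isoforms.

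Dlk1 encodes a transmembrane and secreted protein related to Notch ligands that holds back differentiation of fat cell precursors. Its log2 intensity was 12.29, 12.15 and 11.71 in hSRY-OFF mice and 10.63, 11.15 and 12.36 in hSRY-ON mice. hSRY-ON replicates 1 and 2 lay below all hSRY-OFF mice, whereas hSRY-ON replicate 3 was the highest of all 6 arrays. The means were 12.05 ± 0.30 and 11.38 ± 0.89 (SD, n = 3 each), and the change of -0.67 (SE 0.42, 95% confidence interval -1.66 to 0.32, adjusted p 0.272, limma) did not pass the test. Without hSRY-ON replicate 3 the change was -1.16 (adjusted p 0.0169), and without hSRY-ON replicate 1 it was -0.29. The Dlk1 value of these lungs therefore rests on which hSRY-ON mice are counted, and no reason to leave out a mouse was found in the labels.

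Ndn encodes necdin, a protein of postmitotic cells that binds E2F1 and p53. It measured 11.55, 11.35 and 11.55 in hSRY-OFF mice and 11.34, 10.37 and 10.93 in hSRY-ON mice on the log2 intensity scale. The groups touched to within 0.01, and hSRY-ON replicate 2 was again lowest. The means of 11.48 ± 0.12 and 10.88 ± 0.48 (SD, n = 3 each) gave a change of -0.60 (SE 0.24, adjusted p 0.102, limma), which was not called. Without hSRY-ON replicate 1 it was -0.83 (adjusted p 0.0210).

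Gnas encodes the stimulatory G protein alpha subunit, which couples hormone receptors to adenylyl cyclase, and the same locus makes further transcripts from the maternal and the paternal copy. It had 5 probes, of which 2 passed the filter. Probe ILMN_2632206 measured 11.35, 11.01 and 11.06 in hSRY-OFF mice and 10.95, 10.46 and 10.43 in hSRY-ON mice on the log2 intensity scale. Probe ILMN_1223437 measured 10.18, 10.19 and 9.98 in hSRY-OFF mice and 9.83, 9.56 and 9.76 in hSRY-ON mice. All hSRY-ON mice lay below all hSRY-OFF mice on both. The changes were -0.53 (SE 0.18, adjusted p 0.0695, limma) and -0.40 (SE 0.13, adjusted p 0.0597), and neither was called. Leaving out hSRY-ON replicate 1 gave -0.69 (adjusted p 0.0167) and -0.45 (adjusted p 0.0477). Of the other 3 Gnas probes, ILMN_2638324 was detected in hSRY-ON replicates 1 and 3 only, at 5.92 and 5.69, while the other 2 were detected nowhere. Which Gnas transcript each probe reads was not determined.

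Plagl1 encodes a zinc finger transcription factor that binds GGGGCCCC and regulates other imprinted genes, and Sgce encodes epsilon-sarcoglycan of the dystrophin complex. None of the 3 Plagl1 probes and not the Sgce probe was detected on any array. Their log2 values lay between 4.47 and 5.09 for Plagl1 and between 4.45 and 4.66 for Sgce, in the range of background. A signal that is not well above background does not show that the RNA is absent.

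**Figure D2:**
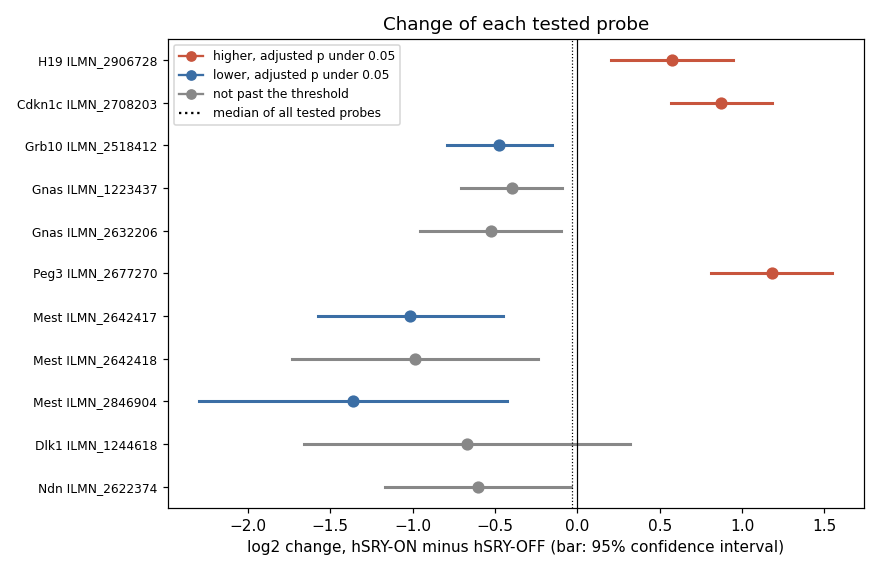
Log2 change from hSRY-OFF to hSRY-ON (horizontal axis) of the 11 tested probes, with bars for the 95% confidence interval and colour for the call. Peg3, Cdkn1c and H19 lie to the right of 0, the other 8 probes lie to the left, and the interval of Dlk1 from -1.66 to 0.32 spans 0.

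By expressed copy, the maternally expressed genes had 3 tested probes, 2 higher and 1 lower. The paternally expressed genes had 6, of which 1 was higher, 2 were lower and 3 were not called. The 2 Gnas probes, whose copy depends on the transcript, were not called. Over all tested probes 13.6% were higher and 13.3% lower. Called genes stood in both directions in either class, but on few genes. Grb10, the only lower maternally expressed gene, lost its call under 8 of the 17 alternative settings. With any 1 of the hSRY-OFF mice left out, 0 lower calls remained in either class.

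The hSRY-ON mice differed among themselves in more than Dlk1. hSRY-ON replicate 2 was the lowest mouse for the 3 Mest probes and Ndn, and replicate 1 was nearest to the hSRY-OFF mice for them. For Dlk1 it was otherwise, with replicate 1 lowest and replicate 3 highest. For Grb10 and Cdkn1c replicate 3 was the highest of the hSRY-ON mice, and for H19 replicate 1 was. Replicates of a group have no order, so these are values of single mice.

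**Figure D3:**
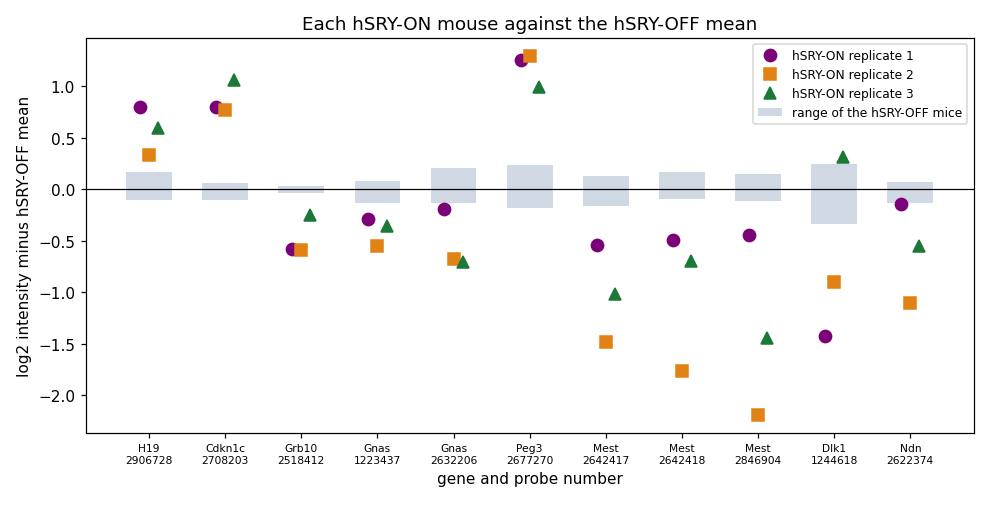
Log2 intensity of each hSRY-ON mouse minus the hSRY-OFF mean (vertical axis) for the 11 tested probes, with the grey bar giving the range of the 3 hSRY-OFF mice. All hSRY-ON points lie outside the bar, above it for Peg3, Cdkn1c, H19 and 1 mouse of Dlk1 and below it for the rest.

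Marker genes of cells and of cell division were examined beside these values. Of the 13 tested probes for proliferation markers 9 were lower, or 69.2%, against 26.9% called over all tested probes. The median change of the 13 was -1.36, and no fitted change was above 0. Mcm3, a subunit of the replicative helicase, changed by -1.70 (adjusted p 0.00397, limma). The summed linear intensity of the list was 12550 to 16197 in hSRY-OFF mice and 4167, 4554 and 9319 in hSRY-ON replicates 1, 2 and 3. Replicate 3 had the highest proliferation sum of its group and also the highest Dlk1, Grb10 and Cdkn1c. Their part in the changes of Dlk1, Grb10 and Cdkn1c was not tested.

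Of the 8 tested smooth muscle and pericyte marker probes 5 were lower, or 62.5%, 3 of them for Acta2. The sums were 44135 to 48490 in hSRY-OFF mice and 32691, 21348 and 32072 in hSRY-ON replicates 1 to 3. The lowest sum belonged to replicate 2, the mouse with the lowest Mest and Ndn. Of the 12 fibroblast marker probes 2 were lower, or 16.7%, below the 26.9% called over all tested probes. The 2 include Wnt2, with a change of -2.18 (adjusted p 0.00692, limma). The median change of the 12 was -0.40, and 3 fitted changes were above 0. The fibroblast sums were 58414 to 60580 against 44679 to 53989. Mfap4, the brightest of these probes, was not called (change -0.47, adjusted p 0.0684), so the sums do not describe the list as a whole. Of the 10 lung marker probes 2 were higher, both for the surfactant protein gene Sftpb, and 1 was lower, or 30% called. The call of the Sftpb probe ILMN_2792670 was lost without hSRY-OFF replicate 1 or 3 or hSRY-ON replicate 2, with adjusted p of 0.101, 0.0836 and 0.0634. Foxf1, a transcription factor of lung mesenchyme, was lower by a change of -1.21, with sums for the list of 103529 to 112546 and 109397 to 116308. The part of these lists in the changes of Mest and Ndn was not tested.

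Markers of tissue that can adhere to a dissected lung were examined as well. Cardiac muscle markers had 1 higher and 1 lower of 7 tested probes, or 28.6%, near the 26.9% called over all tested probes. Nppa, which encodes the atrial natriuretic peptide, measured 5.11, 5.32 and 6.94 in hSRY-OFF mice and 12.32, 12.39 and 9.30 in hSRY-ON mice on the log2 scale (change 5.55, adjusted p 0.00608, limma). Myl4, an atrial myosin light chain gene, changed by -1.94 (adjusted p 0.00499). The sums were 6275 to 8246 in hSRY-OFF and 3875 to 8665 in hSRY-ON mice with Nppa. Without Nppa they were 6241 to 8124 and 2179 to 3555, and all hSRY-ON sums lay below all hSRY-OFF sums. Myl4 was the brightest probe in the sum without Nppa, so that sum does not describe the list as a whole. Myl7 (change -0.99), Myh6 (0.08), Tnni3 (-0.11) and both tested Actc1 probes (0.30 and 0.26) were not called. Skeletal muscle markers had 0 of 6 tested probes called by limma and 1 lower at an unadjusted p under 0.05, with sums of 511 to 818 and 529 to 611, and both Acta1 and Myh4 failed the filter. Cartilage markers had 2 lower of 3 tested probes (sums 411 to 461 and 313 to 354), with Matn1 and Matn3 detected nowhere. Both lower probes were those of Col2a1 (changes -1.75 and -1.38), while the Col9a1 probe, at 0.44 (adjusted p 0.143, limma), was not called. Thymocyte markers had 2 lower of 3 (sums 675 to 772 and 287 to 525), with Rag1, Dntt and Cd8a detected nowhere. The 2 lower probes were those of Cd3e and Lck, while Ptcra, at -0.26 (adjusted p 0.451, limma), was not called. Adipocyte markers had 1 tested probe of 8, that of Cidea, which was higher (change 1.16, adjusted p 0.00534, limma). Adipoq, Ucp1 and Cfd failed the filter, and Plin1, Fabp4, Retn and Lep were detected nowhere. The sums, 238 to 287 and 321 to 335, therefore do not describe the list as a whole. The part of these lists in the changes was not tested.

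H19 and Cdkn1c lie in the distal part of chromosome 7, in neighbouring imprinted domains. In RefSeq order from H19 to Osbpl5, 12 genes with 14 probes were tested, of which 4 were higher and 10 not called. The called share of 28.6% was near the 26.9% of all tested probes, so the count does not set the region apart. The 4 were H19, Igf2, Cdkn1c and Slc22a18, an organic cation transporter. Igf2, the paternally expressed growth factor that shares its enhancers with H19, measured 12.77, 12.46 and 12.46 in hSRY-OFF mice and 13.36, 13.28 and 13.17 in hSRY-ON mice. The groups did not overlap, and the change was 0.70 (SE 0.13, adjusted p 0.0112, limma). Without hSRY-OFF replicate 2 the adjusted p of Igf2 was 0.0547. The log2 change of Slc22a18 was 1.50 (SE 0.14, adjusted p 0.00121). Phlda2, which restrains placental growth, changed by 0.38 (adjusted p 0.0525), Tspan32 by 1.11 (adjusted p 0.0796) and Cd81 by -0.39 (adjusted p 0.0900), and none of these 3 passed the test.

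**Figure D4:**
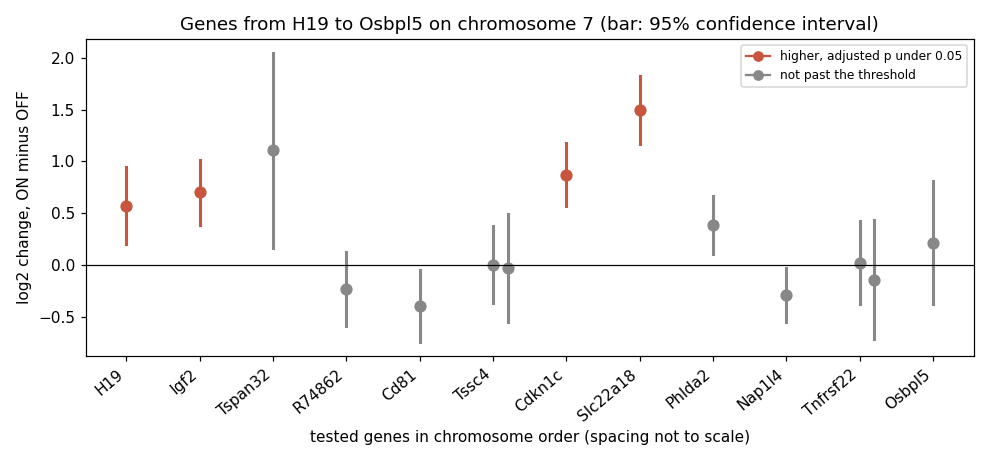
Log2 change from hSRY-OFF to hSRY-ON (vertical axis) with its 95% confidence interval for the 14 tested probes from H19 to Osbpl5, in chromosome order along the horizontal axis. The 4 called probes, those of H19, Igf2, Cdkn1c and Slc22a18, lie above 0 and are interspersed with genes that did not pass the test.

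A list of 44 other imprinted genes gave a comparison. On the array 40 were matched, and 30 probes of 20 of them were tested. Of the 30 probes 5 were higher and 2 lower, or 23.3%, with a median change of 0.02. This share was near the 26.9% called over all tested probes, so the count does not set these genes apart. The maternally expressed genes had 2 higher and 2 lower of 20 probes, and the paternally expressed genes had 3 higher of 10 and the rest not called. Over all tested probes 13.6% were higher and 13.3% lower. Rasgrf1, a guanine nucleotide exchange factor for Ras with paternal expression in brain, rose by 1.57 on the log2 scale (SE 0.14, adjusted p 0.00104, limma). Dcn, the matrix proteoglycan decorin, rose by 0.98 (adjusted p 0.00978) on 1 probe, and its second probe, at 0.57 (adjusted p 0.251), was not called. The signal peptide peptidase gene H13 was lower by 0.84 (adjusted p 0.0178) on only 1 of 3 tested probes. H13 probes ILMN_2700292, at -0.02 (adjusted p 0.928), and ILMN_2742160, at 0.08 (adjusted p 0.672), were brighter and were not called. Commd1, which takes part in copper handling, fell by 0.73 (adjusted p 0.0292) on 1 probe, while its other probe, at -0.36 (adjusted p 0.109), was not called. The called Commd1 probe lost its call without any 1 of the hSRY-OFF mice (adjusted p 0.101, 0.0630 and 0.0909) or without hSRY-ON replicate 2 (adjusted p 0.0671).

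Igf2r, the maternally expressed receptor that removes IGF2, was measured by a pair of probes. Its changes were -0.08 (95% confidence interval -0.37 to 0.21, adjusted p 0.676, limma) and 0.03 (interval -0.23 to 0.29, adjusted p 0.866). No value is given for Meg3, which was not matched.

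Genes of the growth programme that are not imprinted had 11 tested probes of 8 genes. Over all tested probes 26.9% were called. By gene, 5 were higher, 1 was lower and 2 were not called. Of the 11 probes 6 were higher and 1 lower, or 63.6%, with a median change of 0.48. This count includes Igf2bp1, which passed the detection filter through the hSRY-ON mice alone. Over the 10 probes detected in both groups 5 were higher and 1 lower, with a median change of 0.45. Igf2bp2, which encodes a protein that binds Igf2 messenger RNA, rose by 1.76 on the log2 scale (SE 0.18, adjusted p 0.00164, limma). Igf2bp3 rose by 0.74 (adjusted p 0.0184) on 1 of its 2 tested probes, and this call was lost without hSRY-OFF replicate 2 (adjusted p 0.0680) or hSRY-ON replicate 2 (adjusted p 0.0523). Igf2bp1 was not well above background in any hSRY-OFF mouse and was at least 1.57-fold higher in hSRY-ON mice, taking as the hSRY-OFF level on each array the probe's value or, if larger, the dimmest detected probe.

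Hmga1, a chromatin protein of growing tissue, rose by 0.75 (adjusted p 0.0147, limma) on 1 of 2 tested probes. Without any 1 of the hSRY-OFF mice its adjusted p was 0.0521, 0.0518 and 0.0559. Gpc3, a glypican that binds growth factors and restrains growth, rose by 0.48 and 0.51 on its 2 probes (adjusted p 0.0183 and 0.0132), and leaving out a hSRY-OFF mouse gave adjusted p up to 0.0788. Ezh2, the histone methyltransferase of Polycomb repression, fell by 1.11 (SE 0.21, adjusted p 0.0106). Mycn and Hmga2 were detected on no array.

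Genes whose products act with those of the imprinted genes had 28 tested probes of 19 genes. Of these probes 1 was higher and 11 lower, or 42.9%, with a median change of -0.44. Over all tested probes 26.9% were called. By gene, 1 was higher, 5 were lower and 13 were not called, as Cdk2, Ccnd1 and Adcy4 each had several lower probes. Genes of cyclins and of Cdk2, whose complexes p57 inhibits, were among the lower ones. Ccne2 fell by 2.04 on the log2 scale (adjusted p 0.00537, limma) and was detected in all hSRY-OFF mice but in 2 hSRY-ON mice. Ccnd1 fell by 0.79 (adjusted p 0.0114), with an adjusted p of 0.0508 without hSRY-OFF replicate 2. Ccne1, with a change of -0.48 (adjusted p 0.114), was not called. Of the 4 tested probes of Cdk2 3 were lower. ILMN_2717613 lost its call without any 1 mouse other than hSRY-ON replicate 2 and ILMN_2770759 without hSRY-OFF replicate 1 or 2 or hSRY-ON replicate 1 or 3, with adjusted p up to 0.123 and 0.118. E2f1, which necdin binds, fell by 1.03 (adjusted p 0.00687).

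Adcy4, an adenylyl cyclase downstream of the Gnas product, fell by 0.73 (adjusted p 0.0172, limma), and its adjusted p was 0.0746, 0.0663 and 0.0526 without hSRY-OFF replicate 1, hSRY-OFF replicate 2 and hSRY-ON replicate 2. Of the receptors and substrates that Grb10 acts on, Irs2 rose by 1.12 (SE 0.31, adjusted p 0.0379). The Irs2 call was lost without any 1 of the hSRY-OFF mice (adjusted p 0.101, 0.114 and 0.0930). For Insr, the tested probe was labelled D630014A15Rik on the array and was matched to Insr as a synonym. It changed by 0.25 (adjusted p 0.301), while the probe labelled Insr was detected on no array. Igf1r changed by 0.33 (adjusted p 0.226). Neither the matched probe nor Igf1r passed. Of the Notch receptors, which Dlk1 can modulate, Notch1 changed by -0.20 (adjusted p 0.710) and Notch2 by -0.13 (adjusted p 0.567), and neither passed.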

How the data were processed

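Lung RNA of 3 hSRY-OFF and 3 hSRY-ON mice was measured on BeadChips. Groups, replicate numbers and strain FVB come from the labels, and the methods name FVB/N and biological triplicates, so replicates were taken as separate mice. The authors deposited, for each probe and array, an intensity on a linear scale, neither background-corrected nor normalized, with a median per array of 177.1 to 204.0, and a detection p-value, which the authors deposited beside it. Software that summarised the beads is not given in the sources used here. The authors' count-based package TCC was replaced by limma 3.58.1 in R 4.3.3, since the values are intensities.

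The normexp background model drew on the detection p-values, with an offset of 16, followed by quantile normalization between arrays and a log2 transform. Probes with detection p under 0.05 on at least 3 arrays were kept. A model with group as its only term (lmFit, eBayes) was fitted and tested two-sided, with Benjamini-Hochberg adjustment over all 13841 kept probes and a threshold of 0.05. An exact permutation test of 3 against 3 cannot go below p = 0.1. Quantile normalization removes overall shifts, and the offset understates changes of dim probes. Probes of a gene were kept apart, and symbols were matched through RefSeq (GRCm38.p6) synonyms. Summed intensities of a list run over all its probes. The pipeline was tested on simulated data.

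The genes and all lists were chosen with earlier results of these data known. Named beside the imprinted genes were Igf2, Igf2r and Meg3, and, of each other list, up to 5 called genes with the largest change and groups that did not overlap. Gpc3, Cdk2, Ccne1, the receptors, the marker genes and the chromosomal neighbours were named after their values were seen. Alternatives were other background corrections, normalizations, filters, variance models, a replicate block, a stricter threshold and the omission of each mouse. The sum without Nppa and the count over probes detected in both groups were chosen after seeing the data.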

Additional observations from a re-analysis of the deposited data

How the results depend on the processing

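None of the called imprinted probes changed sign under any of the 17 alternatives. Of the 11 tested probes of these genes 6 were called, 3 of them lower. The lower calls were 6 without background correction, with an offset of 50 and with a variance trend and robust estimation, and with array weights they were 7 of 10 calls. At an adjusted p under 0.01, 2 probes of these genes were called and 0 were lower (limma, with 7 lower at an unadjusted p under 0.05), and the counts were 4 for other imprinted genes, 2 for the growth programme, 2 for the partners and 1326 for all probes. Leaving out 1 mouse at a time gave 2 to 8 calls for these genes (2 to 3 higher, 0 to 6 lower), 5 to 9 for other imprinted genes, 3 to 8 for the growth programme, 4 to 11 for the partners and 1675 to 4443 for all probes. The count for these genes was 2 without any 1 of the hSRY-OFF mice and 8 without hSRY-ON replicate 1. The Igf2r probe at 0.03 ran from -0.0177, without hSRY-ON replicate 3, to 0.0793. The replicate numbers did not pair the mice (correlation of same-numbered deviations -0.107, 0.0958 and -0.0927 across probes). With the replicate number as a block 5 probes of these genes were called, Grb10 losing its call (adjusted p 0.0759, limma), as did H13 (0.0511), and 2657 of all probes. With 3 arrays a group, small changes may go uncalled, and signal over background limits Plagl1, Sgce and 3 Gnas probes.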

Other observations

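The nearest tested genes on either side of the 10 imprinted genes comprised 25 probes of 20 genes, of which 4 probes were higher, 2 lower and 19 not called. The called share of 24.0% was near the 26.9% of all tested probes. Both neighbours of Grb10 were called, in opposite directions. Ddc, the decarboxylase that makes dopamine and serotonin, fell by 2.05 on the log2 scale (adjusted p 0.000801, limma), a call that held under all 17 alternatives. Cobl, an actin nucleator on the other side, rose by 0.53 (adjusted p 0.0161) and lost its call without any 1 of the hSRY-OFF mice (adjusted p 0.0747, 0.0554 and 0.0580). Beside Mest, the centrosomal gene Cep41 fell by 0.62 (adjusted p 0.0209), with an adjusted p of 0.0833, 0.0682 and 0.0586 without hSRY-OFF replicate 1, hSRY-OFF replicate 2 and hSRY-ON replicate 2. These genes were named after their values were seen.

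The probe with the largest called fall among the imprinted genes, Mest ILMN_2846904, was compared with all other tested probes. The 5 genes most like it over the 6 arrays were Smox, 1110032E23Rik, Rpl7a, Cd99l2 and Msx1, with Pearson r of 0.994 to 0.998. The arrays fall into 2 groups and r is the highest of many, so these values are a description.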
